A study of Mus musculus with 16 samples.

Results

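The mouse genome holds a large set of genes named Zfp followed by a number, most of which encode proteins with arrays of C2H2 zinc fingers. Their gene bodies and promoters were taken from the GENCODE M21 annotation of mm10 (GRCm38): protein-coding genes on the 19 autosomes with a name of that form, a promoter being all bases within 1000 bp of the transcription start site (TSS). There were 358 such members among 20807 autosomal protein-coding genes, and a further 7 of the 365 genes with such a name lay on the X chromosome and were left out. A run of at least 3 members with no more than 200 kb between neighbours was called a cluster. By this definition 183 members lay in 29 clusters, 44 in 22 pairs, and 131 were single genes.

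To ask where monoubiquitylated histone H2B (H2Bub1) lay on these genes, and where Pol II, the RNA polymerase that transcribes them, stood with and without ATXN7L3, 8 chromatin immunoprecipitation sequencing (ChIP-seq) peak lists were analysed. ATXN7L3 is the adaptor through which the ubiquitin proteases USP22, USP27X and USP51 remove ubiquitin from H2B. The cells were mouse embryonic stem cells (mESCs), grown with LIF, PD0325901 and CH99021 after the feeder cells had been removed, and mouse embryonic fibroblasts (MEFs) made from embryos at E10.5. All were of the strain DBA/2 x C57BL/6, with the genotype Atxn7l3+/+ (WT) or Atxn7l3-/- (KO), and no other treatment was given. The null allele was germline and present in all cells, and the number of lines or embryos behind a library is not given in the sources used here. Each of the 8 groups held 1 library, so the differences below rest on single libraries and carry no p-value. The number of reads behind a list is unknown. The 95% exact binomial (Clopper-Pearson) intervals beside some percentages cover the counting of genes only.

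The lists differed in size. For Pol II, 17074 (WT) and 11963 (KO) peaks were listed in mESCs, and 45870 and 32232 in MEFs. H2Bub1 peaks spanned a total of 71.6 (WT) and 151 Mb (KO) in mESCs, and of 48.1 and 223 Mb in MEFs. At Atxn7l3 itself, H2Bub1 peaks covered 100% (WT) and 62.5% (KO) of the gene body in mESCs, and 22.03% and 65.3% in MEFs. The longest stretch outside peaks was 0 bp and 2750 bp in mESCs and 5078 bp and 2541 bp in MEFs, so these peaks do not identify the KO libraries. Of 6 pluripotency genes, 5 had a Pol II promoter peak in both mESC lists, against 1 in WT and 2 in KO MEFs, and all 6 fibroblast genes had one in both MEF lists and in no mESC list. Of 8 markers of other cell types, none had Pol II at its promoter in WT MEFs and 2 did in KO MEFs, the endothelial gene Pecam1 and the urothelial gene Upk1b. All 4 Y-linked genes examined had a promoter peak in WT MEFs and none did in KO MEFs, so sex and genotype cannot be told apart between the MEF libraries.

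Zinc finger proteins of this kind bind DNA through tandem fingers, each of which contacts a short stretch of bases. In many of them a KRAB domain precedes the fingers and recruits the corepressor TRIM28, which brings SETDB1 and heterochromatin protein 1 to silence retrotransposons and imprinted regions, a system studied above all in embryonic stem cells. The genes multiplied by tandem duplication, which is why they lie in clusters and why their finger exons resemble each other. H2Bub1 is placed by the RNF20 and RNF40 ligases on genes that Pol II is transcribing, and it lies in the 5′ part of the gene body.

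In their own sequence most members matched this description. A C2H2 finger pattern (cysteines 2 to 4 residues apart, 12 residues, then histidines 3 to 5 residues apart) occurred at least 2 times in the longest coding sequence of 336 of the 358 members, with a median of 12 fingers in clustered and 8 in single members. The 12 members without the pattern included Zfp36, an RNA-binding protein with fingers of another type, and the developmental regulators Zfp503 and Zfp703. Letters of the KRAB box (phenylalanine, any residue, aspartate, valine, then alanine, serine or threonine within the first 250 residues) were found in 120 of 183 clustered, 12 of 44 paired and 21 of 131 single members, and in 1.56% of all genes. Chromosome 7 carried 89 members, 68 of them in clusters. The median gene body was 15745 bp in clustered and 21563 bp in single members, against 17629 bp over all genes.

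The promoters differed between the classes as well. In the 300 bases from 250 upstream of the TSS to 50 downstream, the median number of CpG dinucleotides was 10 in clustered, 13 in paired and 17 in single members, and 12 over all genes. Searched on both strands, the ETS letters CCGGAAG stood in 22.1% of member promoters and in 11% of all promoters of this length, the TATA letters TATAAA in 6.98% and 12.7%, and the GC box letters GGGCGG in 40.5% and 43.7%. The NRF1 letters GCATGCGC stood in 5.59% of member promoters and 3.45% of all, and the ZFP143 letters CTACAATTC in 13 members (3.63%) and 0.481% of all promoters. Of those 13, 2 had a Pol II promoter peak in each mESC list, where 38.5% (WT) and 31.8% (KO) of all members did, and 11 and 9 in MEFs, where 82.1% and 79.1% did. A match describes letters in this window and does not show binding.

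A promoter is shown for each member that leads its class, read from the mm10 genome 5′ to 3′ on the strand of the gene, with CpG dinucleotides in capitals. The clustered Zfp146 (chr7:30169701-30170000) and the single Zfp513 (chr5:31202254-31202553) had the highest covered shares summed over the H2Bub1 lists. Zfp688 (chr7:127422019-127422318, clustered) and Zfp358 (chr8:3492888-3493187, single) had the largest difference between KO and WT in mESCs, and Zfp524 (chr7:5014165-5014464, clustered) and Zfp867 (chr11:59472425-59472724, single) that in MEFs. Zfp42 (chr8:43306931-43307230), known as the pluripotency marker Rex1, and Zfp600 (chr4:146156574-146156873), from a cluster with few peaks, were added after their values were seen.
Zfp146: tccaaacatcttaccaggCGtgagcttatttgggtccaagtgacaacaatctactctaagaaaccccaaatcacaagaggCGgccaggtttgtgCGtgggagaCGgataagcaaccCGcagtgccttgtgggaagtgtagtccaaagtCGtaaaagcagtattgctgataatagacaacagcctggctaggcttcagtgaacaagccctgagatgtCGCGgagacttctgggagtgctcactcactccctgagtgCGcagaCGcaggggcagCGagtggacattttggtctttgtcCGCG
Zfp513: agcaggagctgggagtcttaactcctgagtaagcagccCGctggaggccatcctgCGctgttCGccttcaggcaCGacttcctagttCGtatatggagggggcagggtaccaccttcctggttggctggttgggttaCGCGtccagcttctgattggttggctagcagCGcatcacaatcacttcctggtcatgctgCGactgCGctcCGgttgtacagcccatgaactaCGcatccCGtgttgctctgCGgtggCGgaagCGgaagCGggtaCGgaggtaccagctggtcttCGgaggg
Zfp688: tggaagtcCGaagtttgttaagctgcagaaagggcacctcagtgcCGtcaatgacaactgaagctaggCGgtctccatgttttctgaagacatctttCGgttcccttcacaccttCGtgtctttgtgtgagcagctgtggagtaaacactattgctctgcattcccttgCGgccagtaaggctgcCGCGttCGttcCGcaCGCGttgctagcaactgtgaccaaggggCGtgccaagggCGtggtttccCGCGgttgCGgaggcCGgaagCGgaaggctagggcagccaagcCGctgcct
Zfp358: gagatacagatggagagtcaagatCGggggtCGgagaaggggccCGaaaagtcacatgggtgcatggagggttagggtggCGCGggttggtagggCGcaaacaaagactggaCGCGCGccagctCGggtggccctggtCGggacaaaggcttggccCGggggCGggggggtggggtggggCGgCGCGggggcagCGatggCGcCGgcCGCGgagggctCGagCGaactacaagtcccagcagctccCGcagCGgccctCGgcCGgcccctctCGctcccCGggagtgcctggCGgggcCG
Zfp524: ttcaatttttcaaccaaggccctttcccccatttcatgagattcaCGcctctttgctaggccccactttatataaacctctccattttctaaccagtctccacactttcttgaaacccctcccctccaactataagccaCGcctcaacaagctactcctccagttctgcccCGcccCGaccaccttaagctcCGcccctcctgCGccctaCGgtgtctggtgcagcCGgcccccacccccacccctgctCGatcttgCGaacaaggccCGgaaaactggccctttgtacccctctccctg
Zfp867: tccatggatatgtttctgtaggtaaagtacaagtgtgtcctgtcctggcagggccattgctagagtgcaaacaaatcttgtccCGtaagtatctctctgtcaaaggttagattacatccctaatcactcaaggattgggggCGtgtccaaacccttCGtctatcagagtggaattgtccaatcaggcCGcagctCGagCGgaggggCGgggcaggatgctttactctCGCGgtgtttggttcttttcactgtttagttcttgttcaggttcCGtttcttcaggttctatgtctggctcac
Zfp42: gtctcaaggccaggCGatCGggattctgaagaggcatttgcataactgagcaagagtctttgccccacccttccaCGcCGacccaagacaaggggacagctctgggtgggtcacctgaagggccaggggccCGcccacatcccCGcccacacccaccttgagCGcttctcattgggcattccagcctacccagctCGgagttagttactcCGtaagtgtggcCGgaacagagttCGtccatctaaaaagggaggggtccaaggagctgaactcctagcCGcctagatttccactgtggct
Zfp600: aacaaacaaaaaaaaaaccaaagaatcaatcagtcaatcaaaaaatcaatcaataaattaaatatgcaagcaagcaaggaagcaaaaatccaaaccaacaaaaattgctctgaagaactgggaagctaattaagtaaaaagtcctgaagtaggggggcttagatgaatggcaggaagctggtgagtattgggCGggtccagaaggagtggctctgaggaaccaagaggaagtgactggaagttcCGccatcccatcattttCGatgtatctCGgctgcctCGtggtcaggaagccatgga
Zfp146, Zfp513 and Zfp867 lie on the minus strand, as do Zfp688 and Zfp42, and the others on the plus strand. Among the members with the largest differences the number of CpG was 31 in Zfp358, 20 in Zfp688, 11 in Zfp524 and 10 in Zfp867, and it was 5 in Zfp600.

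To see whether more of the members carried H2Bub1 when its removal was impaired, the share of each gene body inside H2Bub1 peaks was compared between the genotypes. In mESCs, 222 members (62.0%, interval 56.8 to 67.1) had a peak in the gene body in WT and 298 (83.2%, interval 79.0 to 86.96) in KO, where the same call was made for 55.7% and 62.1% of all genes. A peak was found in KO only at 84 members (23.5%) against 9.53% of all genes, and in WT only at 8 members (2.23%) against 3.13%. The covered share was higher in KO at 274 members (76.5%), against 54.2% of all genes, and lower at 28. The median covered share over all members was 4.18% in WT and 20.1% in KO, and over all genes 1.31% and 6.66%. Among the 214 members with a peak in both lists the share was higher in KO at 190 (88.8%), close to the 85% found over all genes of that kind. With only peaks of a −log10 q of at least 3, the calls came to 23.2% in WT and 57.8% in KO mESCs, and the median difference of 8.54 points (interval 6.44 to 11.1) to 1.42 points. This threshold was not applied to all genes.

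In MEFs the difference was wider. A gene-body peak was found at 168 members (46.9%, interval 41.7 to 52.2) in WT and at 298 (83.2%, interval 79.0 to 86.96) in KO, against 31.7% and 54.3% of all genes. There were 130 members (36.3%) with a peak in KO only, against 22.9% of all genes, and 0 of 358 in WT only, which allows a share of up to 1.03%, against 0.293% of all genes. The covered share was higher in KO at 297 members (83.0%), against 53.8% of all genes. It was lower at 1, Zfp651, with 47.5% in WT and 46.8% in KO. The median over all members was 0% in WT and 42.6% in KO, and over all genes 0% and 6.37%. With only peaks of a −log10 q of at least 3, the calls came to 5.59% in WT and 76.5% in KO. This threshold was not applied to all genes, so members and all genes cannot be compared at it. Where both lists had a peak the medians were 17.5% in WT and 72.0% in KO over 168 members. More than 90% of the body was covered at 3 members in WT and 57 in KO MEFs, beside 128 and 1983 of all 20807 genes, and at 9 and 28 members in mESCs, beside 662 and 1660 of all genes. Summed over members, the covered length was 1082 kb in WT and 2253 kb in KO mESCs, a ratio of 2.08 against 2.02 over all genes, and 1015 kb and 4002 kb in MEFs, a ratio of 3.94 against 4.46.

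**Figure D1:**
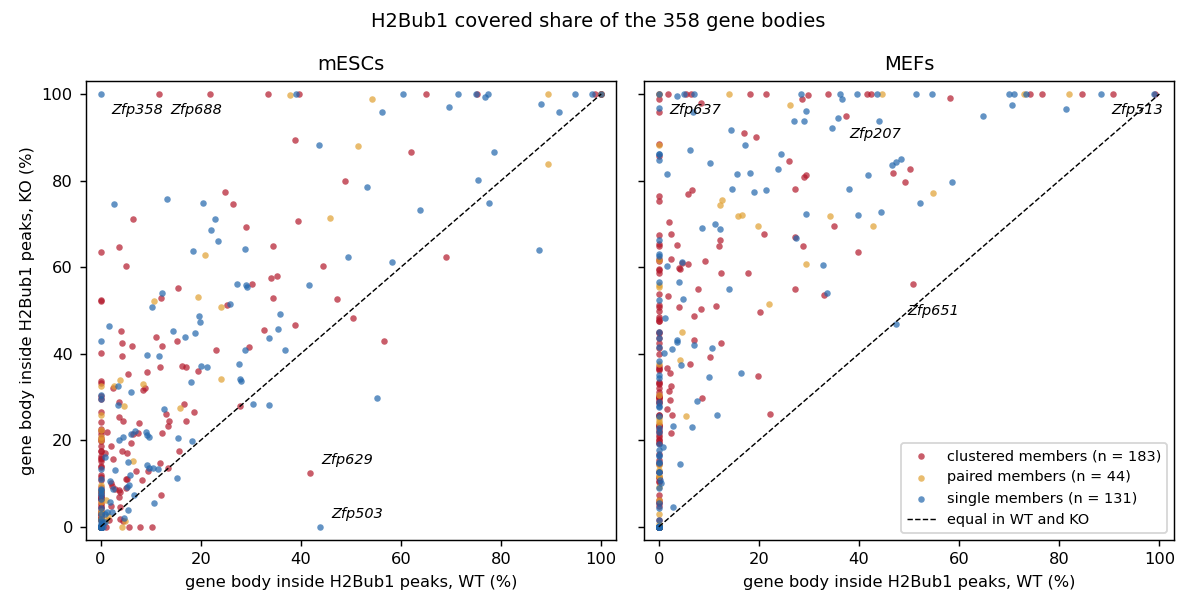
Each point is 1 of the 358 Zfp-named gene bodies, with the percentage of its length inside H2Bub1 peaks in WT on the x axis and in KO on the y axis, for mESCs on the left and MEFs on the right; colours give clustered, paired and single members and the dashed line marks equal shares. In mESCs 28 members lie below the line and in MEFs 1 does, and 84 members in mESCs and 130 in MEFs stand at 0% in WT and above it in KO.

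The members with the largest differences were shorter than the members' median gene body of 17402 bp, from 3102 bp at Zfp688 to 15745 bp at Zfp35. In mESCs, Zfp358 went from 0% covered in WT to 100% in KO, and Zfp688 from 11.7% to 100%. Zfp524 was covered to 21.8% in WT and to 100% in KO, Zfp46 to 2.65% and 74.7%, and Zfp263 to 33.4% and 100%. Zfp263 also had a Pol II promoter peak in KO mESCs only, with a fold enrichment of 5.33, while Zfp358 and Zfp46 had none in either mESC list. In MEFs, Zfp637, Zfp524 and Zfp867 were at 0% in WT and at 100% in KO. Zfp688 stood at 0% in WT and 98.8% in KO MEFs, and Zfp35 at 1.86% and 100%. All 5 had a Pol II promoter peak in both MEF lists, with folds between 5.90 and 22.5. Zfp524 and Zfp688 thus led in both cell types, and both lie in clusters on chromosome 7.

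A lower share in KO mESCs was found at 28 of 358 members and at 2045 of all 20807 genes. Zfp503, a corepressor of limb and brain development without C2H2 fingers of the searched form, was covered to 43.8% in WT mESCs and to 0% in KO, and in MEFs to 51.5% in WT and 100% in KO. Its relative Zfp703 was covered to 87.6% in WT and 64.0% in KO mESCs, and to 98.9% and 100% in MEFs. Zfp629 stood at 41.9% and 12.4% in mESCs and at 37.4% and 94.9% in MEFs. Zfp276 stood at 55.1% and 29.8% in mESCs, and Zfp819 at 56.7% and 43.0%, with 0% in both MEF lists. Of the 358 members, 253 had a higher share in KO in both cell types, against 44.6% of all genes. A lower share in KO mESCs and a higher one in KO MEFs was found at 20, against 5.05% of all genes, and 1 had a lower share in both.

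Pol II was then examined at the member promoters. In mESCs a promoter peak was found at 138 members (38.5%, interval 33.5 to 43.8) in WT and 114 (31.8%, interval 27.05 to 36.9) in KO, against 35.3% and 32.1% of all genes. Both lists had a peak at 96 members, WT only at 42 (11.7%) against 8.04% of all genes, KO only at 18 (5.03%) against 4.85%, and neither at 202. With the WT list reduced to the number of peaks of the KO list, the counts were 35 in WT only and 29 in KO only. Of the members with a peak in WT, 30.4% (interval 22.9 to 38.8) had none in KO, and over all genes 22.8%. At 39 of the 42 promoters in WT only, the nearest KO peak lay more than 5000 bp from the TSS, and at 1481 of the 1673 such promoters over all genes. Where both lists had a peak, the median log2 of the KO fold over the WT fold was 0.03 (interval -0.11 to 0.14), with 51 members above and 45 below 0. The fold is the authors' enrichment of a peak over the background of its own library, so these ratios compare values within lists and set no absolute level.

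In MEFs a promoter peak was far more common. It was found at 294 members (82.1%, interval 77.8 to 85.95) in WT and 283 (79.1%, interval 74.5 to 83.1) in KO, against 55.3% and 52.3% of all genes. Both lists had a peak at 282 members, WT only at 12 (3.35%) against 4.43% of all genes, and KO only at 1 (0.279%) against 1.51%. The median log2 of the KO fold over the WT fold was -0.21 (interval -0.29 to -0.15), beside -0.22 over all genes, with 94 members above and 188 below 0. The members' ratio was close to that of the whole list.

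The promoters with a peak in WT mESCs only were led by Zfp281, a regulator of pluripotency genes, with a fold of 7.16 in WT and no KO peak within 209303 bp of its TSS. Its H2Bub1 share in the same cells was 58.3% in WT and 61.1% in KO, and in MEFs the promoter had a fold of 13.3 in WT and 12.5 in KO. Zfp422 followed with a fold of 5.72 and Zfp609 with 5.15. Zfp668 and Zfp646 had the same fold of 5.03, because their promoter windows hold the same peak. In KO mESCs only, the promoters with the highest folds were Zfp318 at 5.98, Zfp263 at 5.33, Zfp597 at 4.53, and Zfp12 and Zfp160 at 4.44. In WT MEFs only, Zfp57 led with a fold of 9.12, followed by Zfp114 at 7.88, Zfp692 at 7.44, Zfp575 at 7.00 and Zfp296 at 6.15. At Zfp57, which keeps imprinted regions methylated, the peak lay 797 bp from the TSS in WT and 1122 bp in KO, just outside the window. At Zfp296 the distances were 462 bp and 1164 bp. The only promoter in KO MEFs alone was Zfp626, with a fold of 3.95 and a WT peak 1834 bp away.

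Fold enrichment was highest at a small number of promoters. Zfp143, an activator that binds many promoters, led in mESCs with 20.8 in WT and 12.6 in KO, and stood at 27 in WT and 38.9 in KO MEFs. Zfp202 had 10.7 and Zfp568 9.16 in WT mESCs, and Zfp219 had 12.5 and Zfp341 11.4 in KO mESCs. In WT MEFs the highest folds were 33.0 at Zfp407, 31.6 at Zfp326 and 31.4 at Zfp568. In KO MEFs Zfp143 was followed by Zfp36 with 38.2 and Zfp598 with 31.8. Over all members with a peak, the median fold in mESCs was 4.06 (WT) and 4.44 (KO), and in MEFs 12.5 and 11.01.

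Comparing the cell types within a genotype, the members were occupied in MEFs much more often than in mESCs. In WT, 159 members (44.4%, interval 39.2 to 49.7) had a Pol II promoter peak in MEFs only, against 21.9% of all genes, and 3 (0.838%) in mESCs only, against 1.9%. In KO the counts were 172 (48.05%) in MEFs only, against 21.9% of all genes, and 3 in mESCs only, against 1.61%. The members with a peak in mESCs only were Zfp42, Zfp459 and Zfp819 in WT and Zfp42, Zfp296 and Zfp750 in KO. The MEF lists hold more peaks than the mESC lists, and how far list size accounts for the difference was not tested. H2Bub1 had the opposite balance in WT, with 83 members (23.2%) covered in mESCs only, against 26.4% of all genes, and 29 (8.10%) in MEFs only, against 2.38%. In KO it was even, with 25 members (6.98%) in each, against 11.8% of all genes in mESCs only and 3.95% in MEFs only. Counting H2Bub1 in the gene body and Pol II in the promoter window, a peak was present in all 8 lists at 67 members (18.7%, against 16.9% of all genes) and in none at 27 (7.54%, against 28.7%). One of the latter, Zfp474, had Pol II peaks over 9.68% (WT) and 4.35% (KO) of its gene body in MEFs, outside the promoter window.

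To find out whether clustered members differed from single ones, the calls were compared by class. In WT mESCs, H2Bub1 was called at 54.6% of clustered members (interval 47.1 to 62.0) and 75.6% of single members (interval 67.3 to 82.7). In KO mESCs the shares were 83.1% and 85.5%. In WT MEFs they were 39.3% (interval 32.2 to 46.8) and 59.5% (interval 50.6 to 68.0), and in KO MEFs 81.4% and 86.3%. The classes thus lay apart in both WT lists and close together in both KO lists. The WT intervals did not overlap, but they count genes as independent. Clustered members are neighbours, and each list is a single library. These intervals, and those of the class differences below, therefore do not test whether the classes differ. With only peaks of a −log10 q of at least 3, the difference between single and clustered members was 22.6 points (interval 11.2 to 33.2) in KO mESCs and 1.95 points (interval -3.64 to 8.3) in WT MEFs, so both of these depended on the threshold. In mESCs 30.6% of clustered and 12.2% of single members had a peak in KO only, and in MEFs 42.1% and 26.7%. The median covered share stayed lower in clustered members in each list, at 17.1% against 28.2% in KO mESCs and 36.7% against 54.1% in KO MEFs.

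Pol II separated the classes in mESCs. A promoter peak was found at 29.5% of clustered (interval 23.0 to 36.7) and 55.0% of single members (interval 46.0 to 63.7) in WT mESCs, and at 25.7% (interval 19.5 to 32.7) and 45.0% (interval 36.3 to 54.0) in KO mESCs. In MEFs the classes were at 82.0% and 83.2% in WT and at 79.8% and 79.4% in KO. With clusters defined by gaps of at most 100 kb, single minus clustered was -8.47 points (interval -17.2 to 0.276) in WT MEFs and -9.86 points (interval -19 to -0.663) in KO MEFs. The median fold at clustered promoters in MEFs was 10.9 in WT and 9.64 in KO, below the 14.9 and 12.9 of single members. Paired members had Pol II at 27.3% of promoters in WT and 18.2% in KO mESCs, and at 79.5% and 75% in MEFs.

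**Figure D2:**
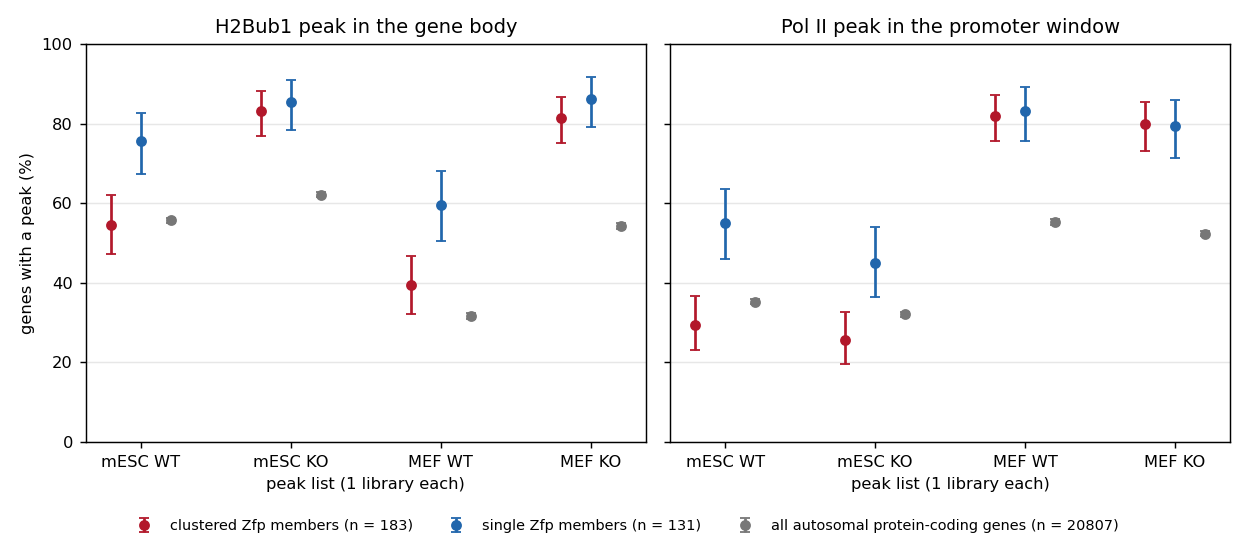
The percentage of genes with a peak is plotted for each list, with 95% exact binomial intervals, for H2Bub1 in the gene body on the left and for Pol II in the promoter window on the right; red marks clustered members, blue single members and grey all autosomal protein-coding genes. Clustered members lie below single ones in both WT lists of H2Bub1 and both mESC lists of Pol II, and within 5 points of them in the other lists.

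The position of H2Bub1 along the gene was read in steps of 100 bp from the TSS, as the share of genes whose base at that distance lay inside a peak. In WT mESCs the share was highest 500 bp downstream in single members, at 54.2%, and 300 bp downstream in clustered members, at 27.9%. In KO mESCs the maximum was 74.8% at 400 bp in single and 66.1% at 300 bp in clustered members. In WT MEFs the profile was low and broad, with maxima of 28.5% at 1800 bp and 18.2% at 3100 bp. In KO MEFs it reached 77.9% at 1500 bp in single and 75.4% at 600 bp in clustered members. At the TSS the share in KO was 60.3% in single and 42.6% in clustered members in mESCs, and 59.5% and 50.8% in MEFs. At 5000 bp only genes of at least that length were counted. The share in KO was then 40.8% in single and 25.9% in clustered members in mESCs, and 68.3% and 50.6% in MEFs. Over all genes it was 30.5% and 39.6% at that distance.

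**Figure D3:**
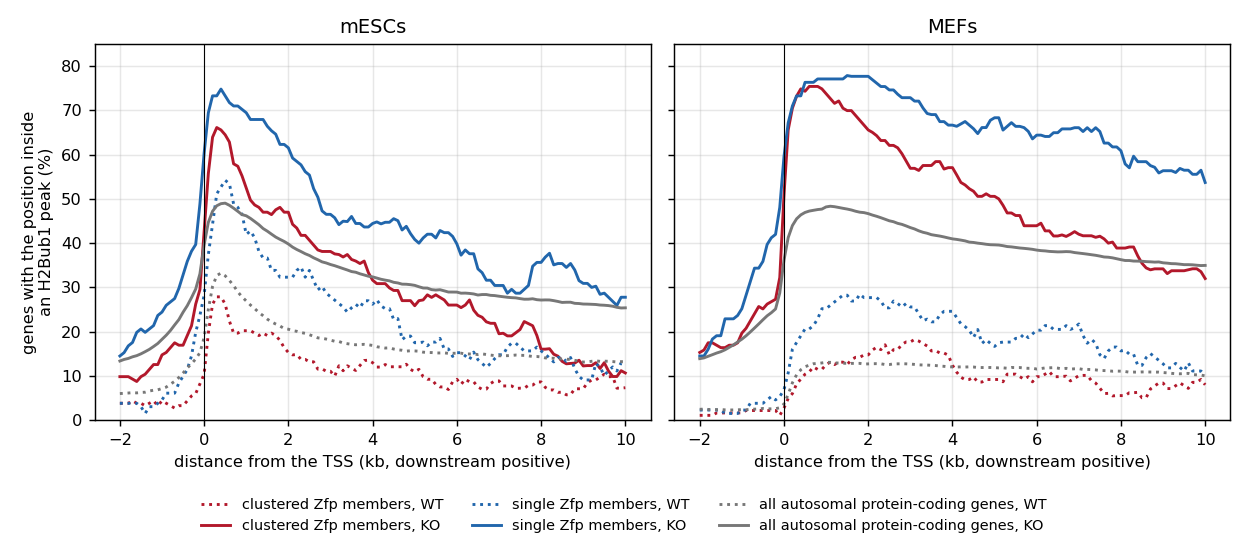
The percentage of genes with the position inside an H2Bub1 peak is plotted against the distance from the TSS in kb, for mESCs on the left and MEFs on the right, with dotted lines for WT and solid lines for KO, red for clustered members, blue for single members and grey for all genes; downstream of the TSS only genes that reach the position are counted. In KO MEFs clustered and single members reach similar maxima, 75.4% and 77.9%, and separate downstream.

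The 16 clusters of 5 or more members held 139 members and differed widely. The largest, Zfp712 to Zfp273 on chromosome 13, had 19 members over 788 kb, 17 of them with KRAB letters. H2Bub1 was called at 4 of them in WT and 16 in KO mESCs, and at 5 in WT and 18 in KO MEFs. Pol II was at 3 promoters in WT and 1 in KO mESCs, but at 15 in each MEF list. The highest covered share in KO was 33.6% at Zfp748 in mESCs and 70.4% at Zfp65 in MEFs, and members at 0% included Zfp457 in mESCs and Zfp459 in MEFs. The second largest, Zfp677 to Zfp946 on chromosome 17, held 18 members, all with KRAB letters. Pol II was at 1 promoter in WT and 2 in KO mESCs and at 17 in each MEF list. H2Bub1 was called at 3 members in WT and 10 in KO mESCs and at 3 and 16 in MEFs, with Zfp758 highest in both KO lists at 30.2% and 65.4%. Zfp677 was at 0% in KO mESCs, and Zfp983 in both KO lists. In these largest clusters the members were thus mostly without Pol II in mESCs and mostly with it in MEFs, whose Pol II lists hold more peaks. H2Bub1 was called at few of them in WT mESCs and in WT MEFs, and at more in KO.

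The next clusters, on chromosome 7, differed from each other. Zfp84 to Zfp146, with 15 members and the role gene Zfp568 among them, had Pol II at 5 promoters in WT and 6 in KO mESCs and at all 15 in both MEF lists. H2Bub1 was called at 11 and 15 members in mESCs and at 10 and 14 in MEFs. The median covered share was 40.1% in KO mESCs and 59.7% in KO MEFs, from 1.81% at Zfp14 to 100% at Zfp146 in mESCs and from 0% at Zfp940 to 100% at Zfp84 in MEFs. Zfp180 to Zfp575 held 12 members, with Pol II at 1 promoter in each mESC list and at 11 in WT and 9 in KO MEFs. H2Bub1 was called at 5 of them (WT) and 9 (KO) in mESCs, and at 2 and 10 in MEFs. The median covered share was 0% in both WT lists, 5.89% in KO mESCs and 30.2% in KO MEFs, within the range of the largest clusters or close to it. Zfp428 was highest in both KO lists, at 100% in mESCs and 95.9% in MEFs, and Zfp114 was at 0% in both.

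Of these 16, the highest median shares in KO were found in another pair of clusters on chromosome 7. Zfp553 to Zfp629 on chromosome 7 held 8 members and 14 other protein-coding genes over 383 kb, and all 8 were called in both mESC lists. Its median covered share in mESCs was 34.3% (WT) and 80.4% (KO), and in MEFs 30.8% and 98.4%. Zfp553 was at 100% in both KO lists, and the lowest were Zfp629 at 12.4% in mESCs and Zfp689 at 53.5% in MEFs. Zfp628 to Zfp580 held 6 members and 8 other genes, without any KRAB letters, and had medians of 41.9% and 93.3% in mESCs and 2.68% and 85.01% in MEFs. Its extremes in KO were Zfp628 at 100% in both cell types and Zfp579 at 28.8% in mESCs and 29.7% in MEFs.

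Of the remaining clusters on chromosome 7, Zfp787 to Zfp28 held 6 members, with Zfp787 highest in KO at 62.3% in mESCs and 100% in MEFs, and Zfp78 (11.6%) and Zfp667 (19.97%) lowest. Zfp329 to Zfp446 held 5, with Zfp324 at 100% and Zfp128 at 5.602% in KO mESCs and Zfp110 at 76.8% and Zfp446 at 7.37% in KO MEFs. Zfp60 to Zfp850 held 5, with Zfp59 at 56.0% in KO mESCs, Zfp60 at 61.0% in KO MEFs, and Zfp974 lowest in both at 3.14% and 20.2%. On chromosome 17, Zfp871 to Zfp563 held 8 members, with Zfp871 highest at 58.0% and 100% and Zfp811 lowest at 7.997% and 0%. Pol II was at 1 (WT) and 0 (KO) of its promoters in mESCs, and at 8 and 7 in MEFs.

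The smaller clusters on other chromosomes varied as well. Zfp786 to Zfp746 on chromosome 6 had Pol II at all 7 promoters in WT mESCs and 5 in KO, and its KO shares ran from 8.66% at Zfp398 to 57.6% at Zfp746 in mESCs and from 0% at Zfp786 to 99.2% at Zfp212 in MEFs. Zfp560 to Zfp846 on chromosome 9 had Pol II at 3 of 5 promoters in WT mESCs and at 0 in KO. Zfp266 was its highest member at 35.3% and 79.7%, and Zfp560 (0%) and Zfp846 (28.9%) its lowest. Zfp653 to Zfp810, also on chromosome 9, was led by Zfp809 at 69.3% and 82.6%, with Zfp872 at 4.62% and 0%. Zfp868 to Zfp866 on chromosome 8 was led by Zfp868 at 74.7% and 84.5%, with Zfp964 lowest at 11.02% and 30.03%.

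The larger clusters on chromosome 4 had few peaks. Zfp989 to Zfp933, with 10 members, had no Pol II promoter peak in mESCs and 2 in each MEF list. H2Bub1 was called at 5 of its members in WT and 4 in KO mESCs, and its highest shares in KO were 21.9% in mESCs and 34.9% in MEFs, both at Zfp933, with 0% at Zfp989. Zfp990 to Zfp600, with 5 members, had no Pol II promoter peak in any list and no H2Bub1 in its members' gene bodies in MEFs, and its highest share in KO mESCs was 10.2% at Zfp990, with 0% at Zfp980. A word of 50 bases, the read length, was unique in the genome at a median of 17.96% of positions in the gene bodies of the first and 14.3% of the second, where all clustered members had a median of 94.1% and single members 97.3%.

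**Figure D4:**
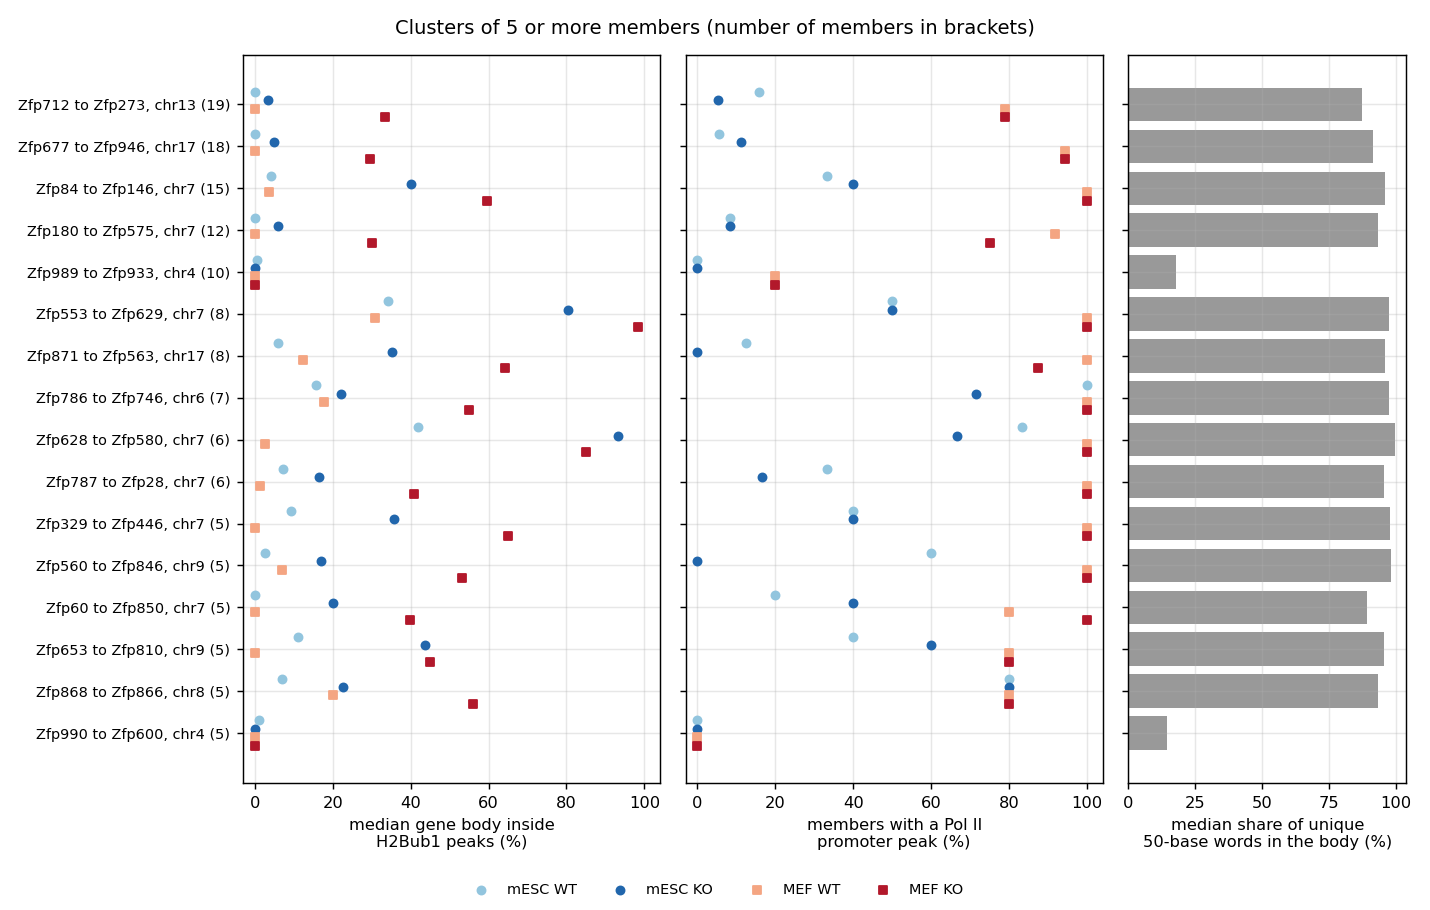
For each of the 16 clusters of 5 or more members, named by its outermost members with the number of members in brackets, the left panel gives the median percentage of the gene body inside H2Bub1 peaks, the middle panel the percentage of members with a Pol II promoter peak, and the right panel the median share of unique 50-base words in the gene bodies; blue circles are mESCs and red squares MEFs, light for WT and dark for KO. The clusters on chromosome 4, with 17.96% and 14.3% unique words, stay at or near 0% in the left panel, and MEFs lie to the right of mESCs in the middle panel for the large clusters on chromosomes 13 and 17.

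Since reads that match several places may be lost in alignment, the calls were set beside the share of unique words. Among the 30 members with under 50% unique words, H2Bub1 was called at 6 in WT and 11 in KO mESCs and at 2 and 9 in MEFs. Among the 144 members with at least 97%, it was called in mESCs at 76.4% (WT) and 89.6% (KO), and in MEFs at 61.1% and 91.0%. Of the 27 members without H2Bub1 in the body or Pol II at the promoter in any list, 16 had under 50% unique words and 10 had at least 90%, among them Zfp352, Zfp541 and Zfp648. How the aligner treated reads with several matches is not given in the sources used here. Restricted to members with at least 90% unique words, H2Bub1 was called at 65.0% of 117 clustered and 80.9% of 110 single members in WT mESCs and at 48.7% and 65.5% in WT MEFs. Of these promoters, 39.3% and 58.2% had Pol II in WT mESCs and 35.0% and 49.1% in KO. Among MEFs the order was the other way, with 94.02% and 86.4% in WT and 92.3% and 83.6% in KO. Single minus clustered was then -7.65 points (interval -16.3 to 0.659) in WT and -8.67 points (interval -17.9 to 0.362) in KO. Both intervals include 0. In KO mESCs the order was turned for H2Bub1 too, with calls at 94.9% of clustered and 86.4% of single members. In KO MEFs the H2Bub1 calls were 94.02% and 90%, with an interval of the difference (-12 to 3.7) that includes 0.

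The number of promoter CpG moved with the calls too. Pol II was at 6.56% of the 61 member promoters with fewer than 6 CpG in WT mESCs and at 65.8% of the 111 with at least 18, and in WT MEFs at 36.1% and 96.4%. H2Bub1 in WT mESCs was called at 36.1% and 82.9% of the same members. Clustered members made up 35 of the 61 and 41 of the 111. The part of promoter CpG and of unique sequence in the difference between clustered and single members was described by restriction only, and among the 192 members with at least 12 CpG single minus clustered was, for Pol II, 15.8 points (interval -0.0886 to 31) in WT mESCs and 11.3 points (interval -4.79 to 26.7) in KO mESCs, both of which include 0. For H2Bub1 in WT mESCs it was 15.1 points (interval 1.92 to 28.1).

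**Figure D5:**
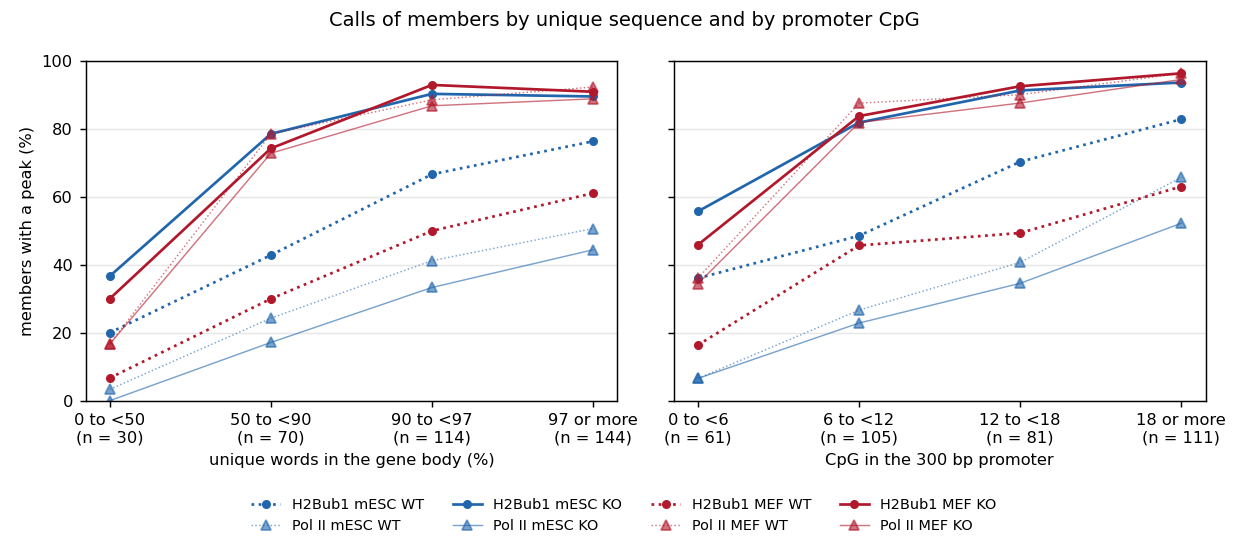
The percentage of members with a peak is plotted by the share of unique 50-base words in the gene body on the left and by the number of CpG in the 300 bp promoter on the right, with circles for H2Bub1 and triangles for Pol II, blue for mESCs and red for MEFs, dotted for WT and solid for KO. All 8 lists have their lowest share in the first bin of each panel; H2Bub1 in WT mESCs runs up to 76.4% on the left and from 36.1% to 82.9% on the right.

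In zinc finger genes of this kind the finger array usually lies in the last exon, which had a median length of 2548 bp in members and 1331 bp over all genes. To see whether H2Bub1 reached it, the longest last exon of each called member was compared with the rest of its gene body. The last exon lay outside peaks altogether in 116 of 221 called members in WT mESCs (52.5%), 180 of 297 in KO mESCs (60.6%), 117 of 167 in WT MEFs (70.1%) and 174 of 297 in KO MEFs (58.6%). Over all called genes the shares were 59.3%, 57.9%, 85.1% and 67.5%. Over these called members, which are not the same in each list, its mean covered share in mESCs was 24.7% (WT) and 23.7% (KO), while that of the rest was 24.7% and 38.6%. In MEFs the last exon had means of 14% and 28.7% and the rest 26.1% and 60.5%. Over all called genes the last exon had means of 25.04% and 28.5% in mESCs and 7.70% and 24.3% in MEFs, and the rest 26.8% and 40.8%, and 23.9% and 53.9%. The median difference between last exon and rest in mESCs was -4.84 points (WT) and -13.3 points (KO), and in MEFs -10.2 and -28.7. The last exons had a median of 98.1% unique words in clustered and 100% in single members, above the 94.1% and 97.3% of the whole bodies.

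H2Bub1 was next set beside Pol II in the same cells. In WT mESCs, 91.3% of the 138 members with a Pol II promoter peak had H2Bub1 in the gene body, and 43.6% of the 220 without one. In KO mESCs these shares were 98.2% of 114 and 76.2% (interval 70.4 to 81.4) of 244, where all genes without Pol II had shares of 36.0% (WT) and 45.2% (KO). All genes with Pol II had shares of 91.9% (WT) and 97.8% (KO), near those of the members. In MEFs, H2Bub1 was called at 56.1% of 294 members with Pol II in WT and 97.5% of 283 in KO, and at 4.69% and 29.3% of those without. Over all genes the shares with Pol II were 53.4% and 93.3%, near those of the members, and without it 4.81% and 11.3%. With only peaks of a −log10 q of at least 3, the difference between members with and without Pol II was 4.99 points (interval -2.12 to 8.76) in place of 51.4 in WT MEFs, and 42.8 in place of 22 in KO mESCs. Where Pol II had a promoter peak in neither mESC list, the covered share was higher in KO at 133 of 202 members (65.8%), against 34.1% of 12462 genes, with a median difference of 4.49 points. Where it had one in WT only, 36 of 42 members (85.7%) had a higher H2Bub1 share in KO, against 78.4% of all such genes, and where it had one in both, 87 of 96 (90.6%), against 84.7%. In MEFs the share was higher in KO at 274 of 282 members (97.2%) with Pol II in both lists, against 93.3% of all such genes, and at 17 of 63 (26.98%) with Pol II in neither, against 9.99%. A higher H2Bub1 share in KO was therefore recorded in mESCs at members of each of these kinds.

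Members with a known role were examined by name. Zfp42 had 75.05% of its body covered in WT and 100% in KO mESCs and a Pol II fold of 3.44 and 3.75, and neither mark in MEFs. Zfp57 was covered to 43.7% and 88.3% in mESCs, and in MEFs to 0% in WT and 86.2% in KO. Zfp445, which also acts at imprinted regions, was covered to 8.43% in WT and 33.1% in KO mESCs and to 29.4% and 60.6% in MEFs. Zfp809, which silences proviral DNA, was covered to 29.1% and 69.3% in mESCs and 50.1% and 82.6% in MEFs, with a Pol II fold of 24.6 in WT and 9.23 in KO MEFs. Zfp568, which silences a placental promoter of Igf2, was covered to 48.9% and 80.0% in mESCs and to 2.53% and 67.6% in MEFs. Zfp30, a member with KRAB letters of the same cluster, stood at 0% and 40.1% in mESCs and at 6.22% and 37.6% in MEFs.

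Regulators of pluripotency and of development differed widely. Zfp423, a regulator of neural and fat development, was covered to 2.21% in WT and 3.46% in KO mESCs and to 0% and 0.204% in MEFs, although Pol II had a fold of 12.9 in WT and 8.71 in KO MEFs. Its relative Zfp521 had no peak of either mark in mESCs. In MEFs its H2Bub1 share was 2.89% and 4.65%, and its Pol II fold 29.5 in WT and 2.61 in KO, the lowest ratio among the members named here. Zfp462 was covered to 18.8% and 44.7% in mESCs and 1.61% and 60.3% in MEFs. Zfp143 had 6.81% and 22.1% in mESCs and 0% and 27.6% in MEFs, beside its high Pol II folds. Zfp217 stood at 78.5% and 86.7% in mESCs and 32.8% and 60.5% in MEFs.

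The other members with a role are expressed in many cell types, and all had Pol II in both MEF lists. Zfp36, which speeds the decay of cytokine mRNAs, was covered to 53.2% and 78.6% in mESCs and 71.0% and 100% in MEFs. Zfp91, a ubiquitin ligase, stood at 10.55% and 13.7% in mESCs and 12.3% and 68.7% in MEFs, and Zfp106, an RNA-binding protein, at 19.7% and 48.6%, and 14.01% and 55.05%. Zfp148 stood at 17.0% and 43.9%, and 37.9% and 78.1%. Zfp207, which acts at the mitotic spindle, was covered to 33.6% in WT and 28.2% in KO mESCs and to 35.8% and 94.4% in MEFs. Zfp335 stood at 75.4% and 80.1% in mESCs and 29.4% and 72.2% in MEFs, Zfp592 at 12.3% and 54.0%, and 52.1% and 74.9%, and Zfp687 at 98.1% and 100%, and 43.6% and 100%.

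The genes of the corepressor with which KRAB members act were taken as a list of 20, among them Trim28, Setdb1, the heterochromatin protein 1 genes Cbx1, Cbx3 and Cbx5, and Dnmt1. All 20 had H2Bub1 in both mESC lists and in KO MEFs, and 18 in WT MEFs. Over all genes the shares with H2Bub1 were 55.7% (WT) and 62.1% (KO) in mESCs, and 31.7% and 54.3% in MEFs. The covered share was higher in KO at 19 of 20 in mESCs, the exception being Uhrf1 with 100% in WT and 84.2% in KO, and at 20 of 20 in MEFs. Over all genes with a peak in both lists it was higher in KO at 85% in mESCs and 98.6% in MEFs. Unlike those genes, the 20 include Setdb1 and Mphosph8, which had no H2Bub1 peak in WT MEFs. The median of the 20 in mESCs was 29.2% (WT) and 49.3% (KO), and in MEFs 16.4% and 62.2%. Trim28, the scaffold itself, was covered to 47.4% and 48.5% in mESCs and to 21.01% and 36.1% in MEFs, and Setdb1 to 3.24% and 11.1%, and 0% and 19.0%. Of the 20 promoters, 15 (WT) and 14 (KO) had Pol II in mESCs, and 17 did in both MEF lists. Over all genes the shares with Pol II were 35.3% (WT) and 32.1% (KO) in mESCs, and 55.3% and 52.3% in MEFs.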

How the data were processed

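The 8 peak lists analysed hold ChIP-seq of H2Bub1 and of Pol II (anti-RPB1); the other 8 samples of the series (inputs and Ser2-phosphorylated Pol II) were not analysed here. Per the study's methods, 50-base single-end reads were aligned to mm10 with Bowtie 1.0.0 and peaks were called with MACS2 2.1.1.20160309, narrow for Pol II and broad for H2Bub1. The control, the threshold, and how the scaling between libraries entered the calls are not given in the sources used here. The lowest deposited −log10 q was between 1.00 and 1.42 over the lists. In the deposited lists each peak has a position, a ratio (the authors' fold enrichment), a −log10 p-value and a −log10 q-value by MACS2, and an integer display score that was not used. For narrow peaks the authors' files also give the summit offset.

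From these, the covered percentage of each gene body and the highest fold of a peak that overlaps the promoter window by at least 1 bp were computed for every autosomal protein-coding gene of GENCODE M21, and members were then read from that table. Unique words are 50-base words that occur once in GRCm38.p6 on either strand. Fingers and KRAB letters were searched in coding sequences translated from the same annotation. Medians have 95% order-statistic intervals. With 1 library in each group no test was run, and the read depth is unknown. Scripts were tested on simulated data. The software was pandas 2.3.3, numba 0.67.0, matplotlib 3.10.9, scipy 1.17.1 and numpy 2.4.6 under Python 3.11.15.

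The members and lists were chosen with earlier results of these data known. Named were members with a known role, the 5 with the largest difference of covered share in each direction and cell type, the 5 with the highest fold among promoters with Pol II in 1 genotype only, the 3 with the highest fold in each Pol II list, the ends and extremes of each cluster of 5 or more members, and those whose promoter is printed. Alternatives were a stricter q, equal list sizes, other windows, summits, transcript starts, joined peaks, isolated members and other definitions of a cluster, and, chosen after seeing the data, members with at least 90% unique words or at least 12 promoter CpG.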

Additional observations from a re-analysis of the deposited data

Results flagged for a closer look

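Among the named members, 16 values of the difference between KO and WT had one sign in mESCs and the opposite sign in MEFs. With 1 library in each group, none of these differences between the cell types was tested.

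For the H2Bub1 covered share, KO minus WT was -43.8 points in mESCs and 48.5 in MEFs at Zfp503, and -29.5 and 57.5 at Zfp629. It was -25.3 and 52.5 points at Zfp276, -23.6 and 1.11 at Zfp703, and -5.36 and 58.5 at Zfp207. Zfp703 was covered to at least 98.9% in both MEF lists. All 5 are members with a lower share in KO mESCs and a higher one in KO MEFs, a pattern found at 20 of 358 members and at 5.05% of all genes.

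Of the 94 members with Pol II in all 4 lists, 43 (45.7%) had opposite signs of the Pol II difference, against 49.8% of all such genes. For the named ones, the log2 ratio of KO to WT was -0.72 in mESCs and 0.53 in MEFs at Zfp143, -0.11 and 0.60 at Zfp598, and -0.04 and 0.50 at Zfp687. In the other direction it was 0.98 and -0.28 at Zfp341, 0.70 and -0.12 at Zfp219, 0.59 and -0.12 at Zfp91, and 0.52 and -0.97 at Zfp407. Zfp462 had 0.50 and -1.06, Zfp809 0.49 and -1.42, Zfp276 0.34 and -0.26, and Zfp207 0.10 and -0.45. Zfp207 and Zfp276 are in both groups, with less H2Bub1 and a higher Pol II fold in KO mESCs and the reverse in KO MEFs.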

How the results depend on the processing

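Of 198 alternative values for 40 results, all over members only, 159 stayed within the interval or within 1.5 times the count, and 39 moved. Of the results whose reported interval excludes 0, 0 changed sign. With a −log10 q of at least 3, H2Bub1 calls in mESCs were 23.2% (WT) and 57.8% (KO), and in MEFs 5.59% and 76.5%. The covered share was then higher in KO at 54.5% of members in mESCs and 76.5% in MEFs, the median difference in mESCs was 1.42 points, and 254 members had a peak in KO only in MEFs. Single minus clustered was 22.6 points in KO mESCs and 1.95 in WT MEFs, last exon minus rest in WT mESCs -6.68 points, and calls with minus without Pol II 36.1 points in WT mESCs, 42.8 in KO mESCs and 4.99 in WT MEFs. Requiring 10% of the gene body gave, in mESCs, 36.9% and 62.3%, and in MEFs 30.2% and 78.8%. Over the 204 members at least 5000 bp from other genes, calls in mESCs were 52.9% (WT) and 77.5% (KO), and in KO MEFs 76%, where the share was higher in KO at 76% with a median difference of 25.4 points. With equal peak numbers 29 members had Pol II in KO mESCs only, and by summits 5 in KO MEFs only. The median log2 ratio of Pol II in mESCs, where the reported interval holds 0, changed sign from 0.0277 to -0.0156 with equal peak numbers.

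Over members with at least 90% unique words (chosen after seeing the data), H2Bub1 calls in mESCs were 72.1% (WT) and 89.9% (KO), and in MEFs 56.2% and 91.9%, with a higher share in KO at 81.8% and 91.5% and median differences of 13 and 36.6 points. Pol II calls in mESCs were 46.5% (WT) and 39.5% (KO), and in MEFs 90.7% and 88.0%. Single minus clustered, where the reported interval holds 0, changed sign for H2Bub1 in KO mESCs (2.44 points) to -8.51 with unique words, -3.98 with gaps of 100 kb and -2.67 with 12 CpG. It did so for H2Bub1 in KO MEFs (4.84) to -4.02, -3.95 and -2.85, and for Pol II in WT MEFs (1.24) to -7.65, -8.47 and -2.67, and to -0.967 with clusters of at least 5. For Pol II in KO MEFs (-0.392) it was 1.82 with gaps of 500 kb. The causes were not tested. The comparison of cell types was not rerun on unique members. No paired analysis was possible because each group has 1 library, and for the same reason no library could be left out. Read depth is unknown, so an absent peak does not show an absent mark.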

Other observations

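H2Bub1 calls of members with and without the KRAB letters lay further apart in WT than in KO. H2Bub1 was called at 51.0% of the 153 members with these letters and at 70.2% of the 205 without in WT mESCs, and at 83.7% and 82.9% in KO mESCs. In MEFs the shares were 35.3% and 55.6% in WT and 83.7% and 82.9% in KO. Pol II was at 26.1% of their promoters in WT mESCs and 47.8% of the others, at 21.6% and 39.5% in KO mESCs, at 83.7% and 81.0% in WT MEFs and at 83.0% and 76.1% in KO MEFs. The median covered share lay further apart in KO, at 14.7% and 27.1% in mESCs and 33.5% and 54.1% in MEFs, than in WT, at 1.09% and 8.43% and at 0% and 2.90%. Of the 153, 120 are clustered, and the letters were not compared within clustered or single members, nor with a stricter q. The letters are a short pattern, and a match or its absence does not show whether a KRAB domain is present.

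Among clustered members 53.6% had Pol II in MEFs only in WT, against 29.01% of single and 52.3% of paired members, and 54.1%, 36.6% and 56.8% in KO. All autosomal protein-coding genes stood at 21.9% for either genotype. The Pol II lists of MEFs hold more peaks than those of mESCs, and the part of list size in these values was not tested. Over the whole span of a cluster, with intergenic sequence and other genes included, the cluster from Zfp712 to Zfp273, which holds 11 other coding genes, was inside H2Bub1 peaks over 0.646% of its span in WT and 4.63% in KO mESCs, and over 1.53% and 22.3% in MEFs. The cluster from Zfp553 to Zfp629, with 14 other coding genes, had 18.7% and 27.8% in mESCs and 9.78% and 41.0% in MEFs.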
